A study of Arabidopsis thaliana with 14 samples.

Results

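The SUVH family of Arabidopsis thaliana comprises 10 genes, SUVH1 to SUVH10, that encode homologs of the fly histone methyltransferase SU(VAR)3-9. They were picked by gene identifier from the 27394 genes on which reads were counted, and all 10 were present in every one of the 14 RNA libraries of siliques. Siliques are the fruits, and each library was made from 3 of them, collected 6 to 9 days after anthesis from plants grown under a 16 h photoperiod. The libraries formed 5 groups: WT Col-0 plants without treatment (n = 2), untreated plants of the T-DNA mutant jas-3 in the Col-0 background (n = 2), jas-3 plants that had received only the solvent DMSO (n = 3), and 2 generations of the suppressor line Aza1, a jas-3 line whose progenitor was exposed to the DNA methylation inhibitor 5-Azacytidine during germination. These generations were eM2 (n = 3) and eM3 (n = 4). The deposited labels name them eM1 and eM2, and the names of the paper are used here because the numbers of libraries match. Every group except WT therefore carries jas-3, and part of the pollen of jas-3 plants is diploid, so their selfed siliques hold diploid and triploid seeds together. Both Aza1 generations descend from 1 treated plant, so that the variation among independently treated lines was not sampled.

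SUVH proteins bind methylated DNA through an SRA domain and carry a SET domain, the fold of lysine methyltransferases. SUVH4 (also called KRYPTONITE), SUVH5 and SUVH6 methylate lysine 9 of histone H3, the mark that the DNA methyltransferase CMT3 binds to maintain CHG methylation, and DNA methylated in this way is in turn bound by the SUVH proteins. SUVH2 and SUVH9 lack measurable methyltransferase activity and recruit RNA polymerase V to methylated DNA. SUVH1 and SUVH3 bind methylated DNA together with the chaperones DNAJ1 and DNAJ2 and promote transcription nearby. SUVH7 is an imprinted gene expressed from the paternal allele in the endosperm, and is one of the paternally expressed genes (PEGs) studied in the seed abortion that follows paternal genome excess. The comparisons with WT ask what differs in jas-3 siliques, and those among the DMSO controls and Aza1 ask what differs in the suppressor line and whether the difference lasts in its next generation.

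SUVH7 and SUVH8 are the closest pair of the family in sequence, and SUVH7 alone of the pair was called between Aza1 eM2 and DMSO, so the bases around their starts are shown. Each stretch runs from 250 bases before to 50 bases after the annotated gene start, which in both genes is the start codon, and is read from the RefSeq TAIR10.1 assembly, whose nuclear chromosomes have the lengths of TAIR10. SUVH7 lies on the plus strand (chr1:6120491-6120790) and SUVH8 on the minus strand (chr2:10531908-10532207). Capitals mark the start codon and each copy, on either strand, of the RY motif CATGCA or the TATA motif TATAAA.
SUVH7: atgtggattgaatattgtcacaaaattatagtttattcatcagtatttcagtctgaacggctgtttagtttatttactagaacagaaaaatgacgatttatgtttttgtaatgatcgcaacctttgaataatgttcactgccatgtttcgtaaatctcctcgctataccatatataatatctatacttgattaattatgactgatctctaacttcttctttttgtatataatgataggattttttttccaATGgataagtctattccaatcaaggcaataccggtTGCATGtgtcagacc
SUVH8: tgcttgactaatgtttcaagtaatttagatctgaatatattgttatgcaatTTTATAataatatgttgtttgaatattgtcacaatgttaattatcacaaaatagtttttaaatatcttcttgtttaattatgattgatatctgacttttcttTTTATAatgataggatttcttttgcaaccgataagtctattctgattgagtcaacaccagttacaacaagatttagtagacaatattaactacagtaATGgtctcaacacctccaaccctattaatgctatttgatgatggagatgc
The best local alignment of both stretches covered 107 bases with 84.1% identity and ran from position -75 to position 38 of SUVH7 and from position -139 to position -33 of SUVH8, counted from the first base of each start codon as 0. The bases that open the coding sequence of SUVH7 thus align with bases before the start codon of SUVH8. The score of this alignment was 60, against 22 for SUVH8 and SUVH9, the next best of all pairs of members. The RY motif, bound by seed transcription factors, began at position 35 of SUVH7, inside the coding sequence, and was present in 2 of the 10 members (the other was SUVH10) and in 9.83% of the 26894 gene starts searched. The TATA motif was present in 6 of 10 members, among them SUVH8 but not SUVH7, and in 52.6% of gene starts. Only the exact bases TATAAA were searched, so related forms such as TATATAA, which the SUVH7 stretch holds, were not counted. The copies in SUVH8 lie on the strand opposite to the gene. The G-box CACGTG was in none of the members and in 7.76% of gene starts. The CArG box, the motif of MADS-domain proteins, was in SUVH10 and in 3.07%. The stretch of SUVH7 held 6 CG dinucleotides, equal to the median of 6 over all gene starts, and that of SUVH8 held 1.

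Over the coding sequences, SUVH7 and SUVH8 shared 78.1% of aligned bases, SUVH5 and SUVH6 68.5%, SUVH1 and SUVH3 65.1%, SUVH3 and SUVH10 63.9%, and SUVH2 and SUVH9 62.5%. The lowest value, 44.9%, was between SUVH6 and SUVH10. The coding sequence of SUVH4 is split over 14 exons, and that of each of the other 9 members lies in 1 exon. SUVH10 has the shortest coding sequence, 939 bases, against 1875 bases in SUVH4 and 2385 bases in SUVH5, the shortest and longest of the others. In every member, all windows of 100 bases (100%) occurred once in the genome, so reads of that length from SUVH7 can be told from those of SUVH8.

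**Figure D1:**
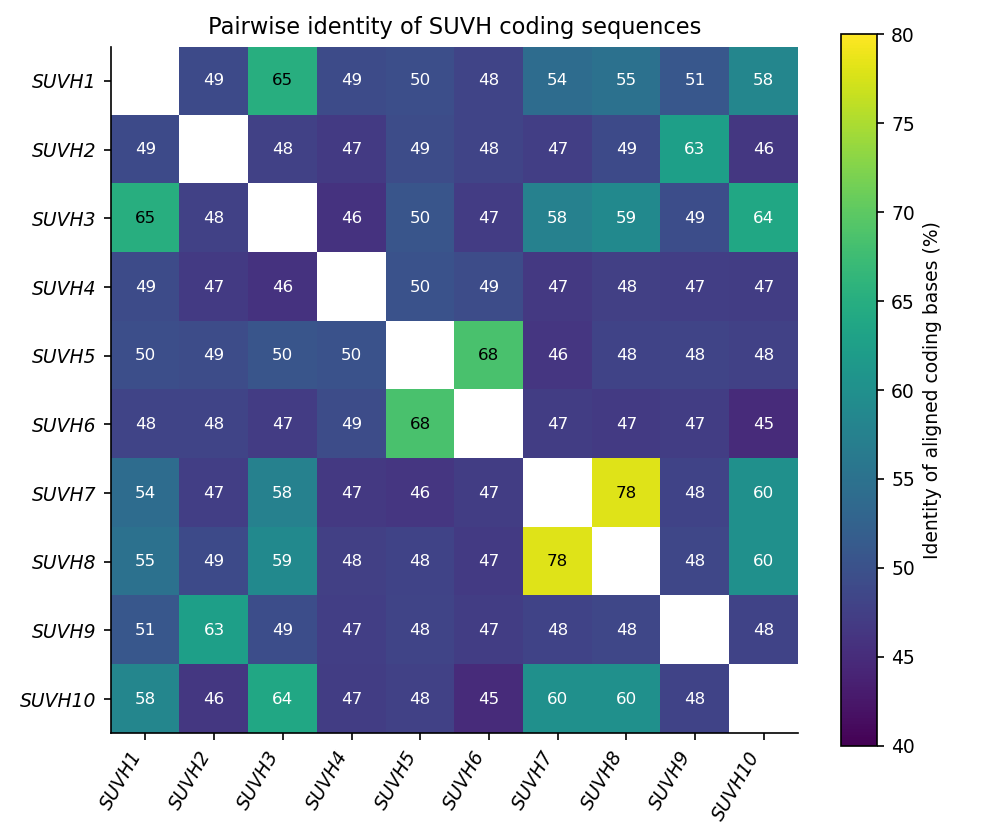
Identity of aligned coding bases, in percent, for each pair of SUVH genes; rows and columns are the 10 members and the colour runs from 40% to 80%. The pair SUVH7 and SUVH8, at 78.1%, is the brightest cell, followed by SUVH5 and SUVH6 at 68.5%.

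Total gene counts lay between 40526464 and 43974069 per library. Expression is given as counts, as CPM (counts scaled to a common library size) adjusted by TMM, a scaling that sets the bulk of genes equal between libraries, and, to compare genes, as FPKM (counts per kilobase of exon, scaled to the total gene counts of the library). Changes were tested with edgeR's quasi-likelihood test over 22359 genes with Benjamini-Hochberg adjustment, and a call required a log2 fold change of 2 or more, up or down, with an adjusted p under 0.01. A second rule took any gene with an adjusted p under 0.05, whatever its fold change. The labels do not say what the libraries of a group share, so p-values measure the spread between these libraries. Counts of JASON were 14 and 14 in WT, 188 and 225 in the jas-3-labelled libraries, and 80 to 196 across DMSO and Aza1. Its level was thus higher, not lower, in plants labelled as its mutant, and counts on a whole gene do not show where the reads lie. The 9 seed storage protein genes, made in the embryo, took 37.2% and 43.1% of the gene counts of the WT libraries, and their summed level was 489965 to 682943 CPM in WT, 62386 to 152950 CPM in the jas-3-labelled libraries, 86307 to 210854 CPM in DMSO, 207512 to 350883 CPM in Aza1 eM2 and 128020 to 287755 CPM in Aza1 eM3. The summed level of 5 endosperm markers was 1.79 to 1.85 CPM in WT, with PHE1 and FWA at 0 in both libraries, 38.9 to 55.1 CPM in the jas-3-labelled libraries, 22.3 to 59.6 CPM in DMSO, 7.28 to 10.8 CPM in Aza1 eM2 and 17.9 to 38.8 CPM in Aza1 eM3. In whole siliques, fewer cells of a type and less RNA per cell cannot be told apart.

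Per length of exon, SUVH9 had the highest mean level of the family in all 5 groups. In DMSO it was at 14.6 ± 2.65 FPKM (SD, n = 3), followed by SUVH1 at 9.37 ± 1.01, SUVH3 at 8.60 ± 0.69, SUVH6 at 7.98 ± 1.53, SUVH4 at 5.63 ± 1.65, SUVH5 at 4.38 ± 0.60, SUVH2 at 3.51 ± 0.88, SUVH8 at 2.49 ± 0.62 and SUVH7 at 2.18 ± 0.64 FPKM. Of the neighbours in this order, SUVH9 and SUVH1 did not overlap between libraries, and the 7 following pairs down to SUVH8 and SUVH7 did. SUVH10 stood below all others. The order was the same in the jas-3-labelled libraries, in Aza1 eM2 and in Aza1 eM3, and differed in WT. In WT, SUVH6 at 7.69 ± 1.19 FPKM (n = 2) came next to SUVH9 at 8.08 ± 0.14 and overlapped with it, while SUVH4 at 0.78 ± 0.27 and SUVH8 at 0.12 ± 0.05 stood below SUVH2 at 1.75 ± 0.23, and SUVH7 had no count.

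As a share of the summed FPKM of the family, SUVH4, SUVH7 and SUVH8 together made up 2.40% and 3.40% in the WT libraries. They made up 18.8% and 19.2% in the jas-3-labelled libraries, 16.0% to 19.7% in DMSO, 11.2% to 13.8% in Aza1 eM2 and 16.6% to 19.9% in Aza1 eM3. SUVH6 moved the other way, from 24.3% and 25.7% of the family in WT to between 12.3% and 16.1% in the 12 other libraries. The share of SUVH9 was between 22.7% and 29.0% in all 14 libraries. These shares are taken within a library and do not depend on the scaling between libraries.

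**Figure D2:**
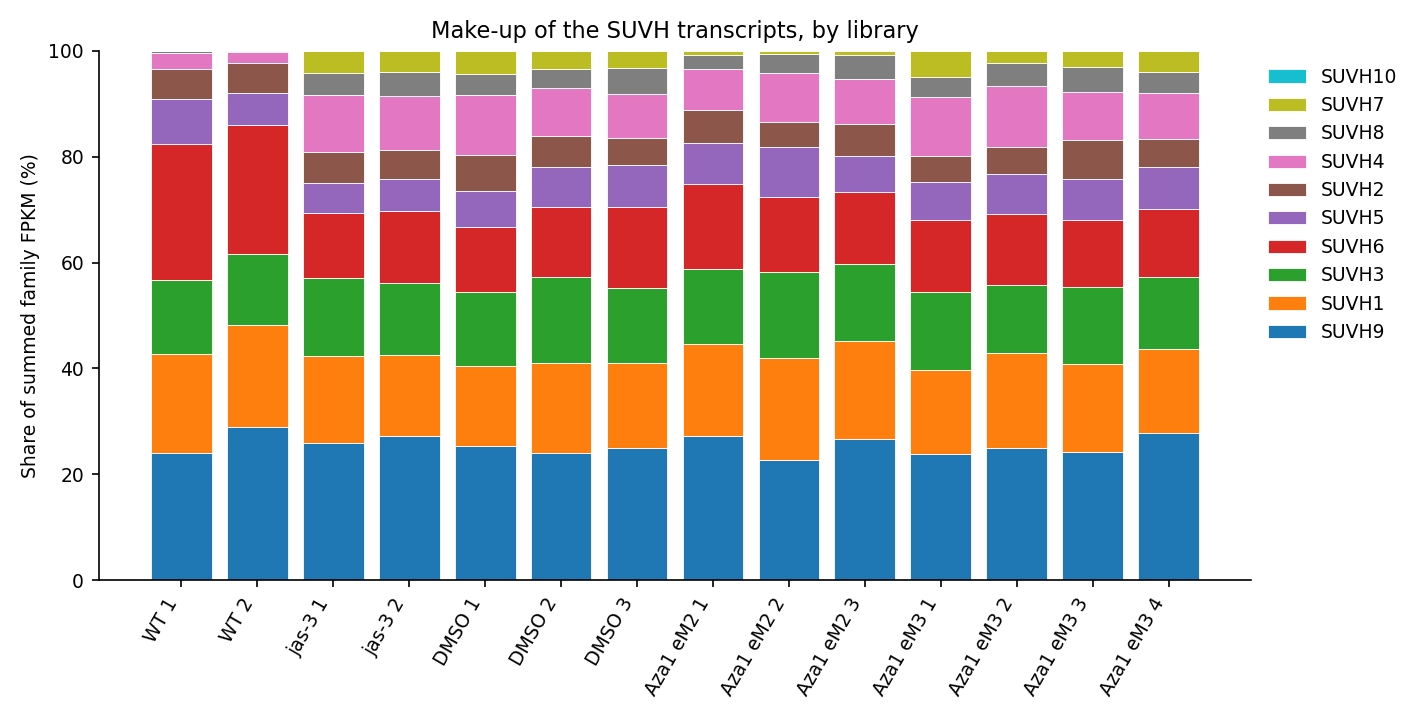
Share of the summed family FPKM (%, vertical axis) taken by each SUVH gene in each of the 14 libraries (horizontal axis, grouped). SUVH4, SUVH8 and SUVH7, at the top of the bars, together take 2.40% and 3.40% in WT and 11.2% to 19.9% elsewhere, and the SUVH7 band is thin in the 3 Aza1 eM2 libraries.

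In the jas-3-labelled libraries, SUVH4, SUVH7 and SUVH8 were called up against WT and no member was called down, 3 of 9 tested members against 7.08% of all tested genes called up and 1.99% called down. SUVH10 was not tested. The median log2 fold change of the 9 members was 0.32, against 0.06 over all genes. This median does not depend on how far SUVH7, the highest of the 9, lies above the others. At the second rule 4 members were higher and 1 was lower, against 23.7% and 16.5% of all genes. Groups did not overlap in 7 of 9 members, near the 72% of all genes for which this held. With total gene counts as the scaling in place of TMM, chosen after the data had been seen, the median of all genes moved to 0.85 and the second rule gave 8 members higher and 0 lower. The members' changes against WT below are therefore relative to the bulk of genes.

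No read of SUVH7 (AT1G17770, chromosome 1, 6120741 to 6122822) was counted in WT, with 0 and 0 counts. Its counts were 265 and 211 in the jas-3-labelled libraries, and 252, 142 and 184 with DMSO. Every jas-3 and DMSO library was thus far above the floor of 3 counts. SUVH7 was at least 38.5-fold higher in the jas-3-labelled libraries than in WT (adjusted p = 1.94e-06, edgeR) and at least 27.3-fold higher in DMSO (adjusted p = 1.64e-06). These bounds compare the lowest library of the higher group with a floor of 3 counts per WT library. They and the bounds given below for Aza1 take each count as an independent fragment. The bounds would be smaller if both mates of a fragment were counted.

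For SUVH8 (AT2G24740, chromosome 2, 10529690 to 10531957), WT gave 14 and 8 counts, the jas-3-labelled libraries gave 282 and 271, and DMSO gave 255, 169 and 297. WT lay below all other libraries. Its log2 fold change was 3.82 (standard error 0.38, adjusted p = 1.36e-05, edgeR), a 14.1-fold difference, in the jas-3-labelled libraries and 3.68 (0.36, adjusted p = 1.06e-05) in DMSO. SUVH4 (AT5G13960, chromosome 5, 4501447 to 4506188), the principal H3K9 dimethyltransferase, was counted 95 and 58 times in WT, 770 and 636 times in the jas-3-labelled libraries, and 756, 431 and 537 times with DMSO. Here too, no library overlapped with WT. SUVH4 was 5.18-fold higher in the jas-3-labelled libraries, with a log2 fold change of 2.37 (0.24, adjusted p = 1.62e-05, edgeR), and 4.42-fold higher in DMSO, with a log2 fold change of 2.14 (0.23, adjusted p = 1.78e-05). In DMSO its call was lost without WT replicate 2 (log2 fold change 1.97) or without DMSO replicate 1 (1.97), where the fold change fell just under the threshold. With the share of seed storage counts as a covariate, the log2 fold change of SUVH4 was 1.83 in the jas-3-labelled libraries and 1.69 in DMSO, under the threshold in both.

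SUVH6 (AT2G22740, chromosome 2, 9662638 to 9666981), which acts beside SUVH4 and SUVH5, was the only member with an adjusted p under 0.05 in the other direction. WT gave 903 and 730 counts, the jas-3-labelled libraries gave 956 and 923, and DMSO gave 896, 691 and 1075, which on the CPM scale was 28.9 ± 0.69 (n = 2), 18.7 ± 1.37 (n = 2) and 18.5 ± 3.81 (n = 3). Raw counts were thus close while the scaled levels did not overlap. Its log2 fold change was -0.63 (0.15, adjusted p = 0.00679, edgeR) in the jas-3-labelled libraries and -0.64 (0.14, adjusted p = 0.00233) in DMSO, and with total gene counts as the scaling the direction flipped, to 0.16 (adjusted p = 0.499) and 0.054 (adjusted p = 0.811). SUVH6 overlaps AT2G22730, on which 23 to 87 counts per library were recorded, and SUVH3 overlaps AT1G73110, with 102 to 374 counts. SUVH3 passed the second rule with a log2 fold change of 0.37 (adjusted p = 0.0476) in the jas-3-labelled libraries and 0.33 (adjusted p = 0.0432) in DMSO. Leaving out 1 library at a time moved the adjusted p of SUVH3 between 0.0359 and 0.226 in the first of these comparisons and between 0.0257 and 0.131 in the other, so its place under the second rule depends on single libraries. Without jas-3 replicate 1, neither SUVH3 nor SUVH6 passed it in the comparison of jas-3 with WT, which left 3 members in place of 5. SUVH5, which methylates H3K9 beside SUVH4 and SUVH6, had a log2 fold change of -0.01 in the jas-3-labelled libraries against WT. Its approximate 95% confidence interval, -0.41 to 0.39, does not include the change of SUVH4. The log2 fold changes of SUVH1, SUVH2 and SUVH9 were 0.07, 0.31 and 0.32, with adjusted p of 0.707, 0.321 and 0.109 (edgeR).

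SUVH7, SUVH8 and SUVH4 were also the members called up in DMSO against WT, where 7.44% of all genes were called up and 2.98% down, and in Aza1 eM2 against WT, where these shares were 5.4% and 1.62%. At the second rule, 4 members were higher and 1 was lower in both, against 27.1% and 22.6% of all genes in DMSO and 22.4% and 15.8% in Aza1 eM2. Groups did not overlap in 6 of 9 members in DMSO, against 66.2% of all genes, and in 7 of 9 in Aza1 eM2, against 60.9%. These comparisons share the same 2 WT libraries. In Aza1 eM2, SUVH8 was 10.9-fold above WT (log2 fold change 3.44, adjusted p = 2.7e-05, edgeR), SUVH4 was 4.02-fold above it (2.01, adjusted p = 4.32e-05) and SUVH7 was at least 6.62-fold above it (adjusted p = 3.23e-05). SUVH4 lay so close to the threshold that it was not called without WT replicate 2 (1.82) or without Aza1 eM2 replicate 2 (1.91), nor with the seed storage share as a covariate (1.76), with DESeq2 (1.98) or its size factors (1.98), or with only these groups in the fit (1.98). SUVH3 (0.39, adjusted p = 0.0291) and SUVH6 (-0.53, adjusted p = 0.00978) completed the 5 members of the second rule, and neither passed it without WT replicate 1 or without WT replicate 2. The summed levels of seed storage and endosperm markers differed from WT in all groups, as given above. In Aza1 eM2 against WT, 1 of 9 seed storage genes and 3 of 5 endosperm markers passed the second rule. Of the 4 embryo markers, the regulator LEC1 was counted 67 and 32 times in WT and 1079 to 3867 times in the 12 other libraries. ABI3, OLEO1 and FUS3 went the other way in the jas-3-labelled libraries against WT. Their log2 fold changes were -1.52, -2.51 and -0.35 (adjusted p = 0.00127, 0.00133 and 0.285, edgeR). The part of these differences in the changes of SUVH4, SUVH7 and SUVH8 was not tested.

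No member passed either rule between the DMSO controls and the untreated jas-3-labelled libraries, with edgeR or with DESeq2. Over all genes, 0.0894% were called up and 0.121% down, and 0.599% and 1% passed the second rule. Groups did not overlap in 2 of 9 members, against 26.6% of all genes. The log2 fold changes of the 9 members lay between -0.24 and 0.29, with a median of -0.08, and none had an unadjusted p under 0.05.

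**Figure D3:**
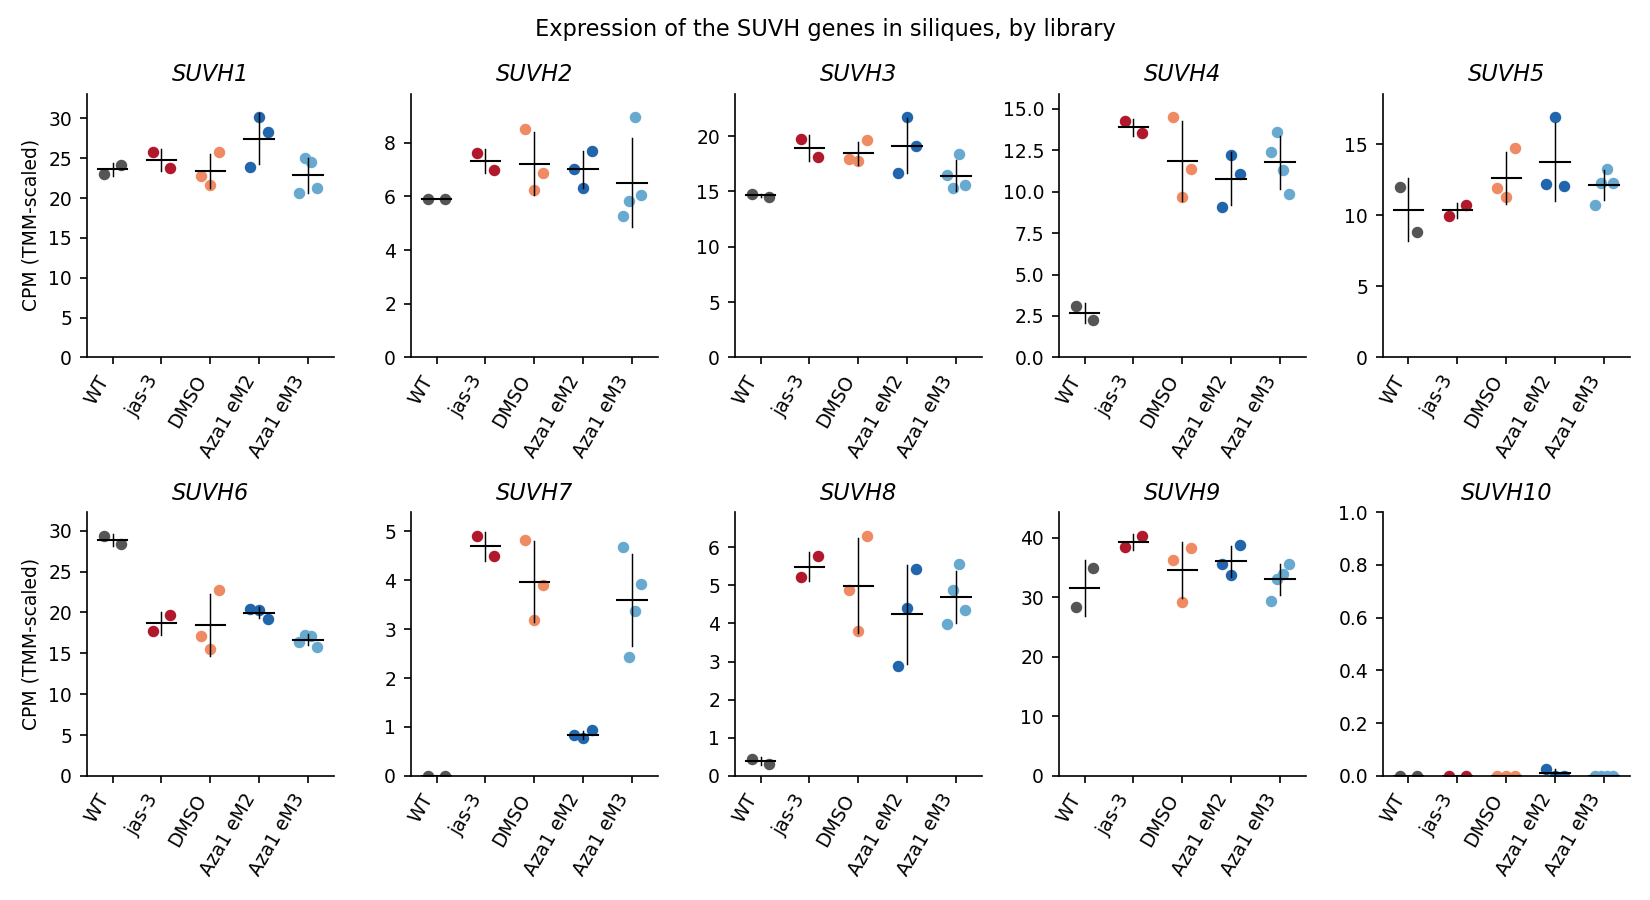
Level of each SUVH gene in CPM scaled by TMM (vertical axis, from 0, with a scale of its own for each gene) in the 5 groups; points are libraries, horizontal bars are means and vertical bars are ± 1 SD. SUVH4, SUVH7 and SUVH8 are low or at 0 in WT, SUVH6 is highest there (a direction that flips for jas-3 and DMSO with total gene counts as the scaling), and SUVH7 alone drops in Aza1 eM2, to 0.84 ± 0.08 CPM.

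In Aza1 eM2, SUVH7 fell below the DMSO controls and was the only member to pass either rule. Its counts were 30, 34 and 34, against 252, 142 and 184 with DMSO, or 0.84 ± 0.08 CPM (n = 3) against 3.97 ± 0.82 CPM (n = 3), and the groups did not overlap. The log2 fold change was -2.23 (standard error 0.26, approximate 95% confidence interval -2.75 to -1.71, adjusted p = 0.00112, edgeR), which is 4.70-fold lower. This was 1 of 9 members, against 1.44% of all genes called down and 0.0716% called up, and against 3.65% lower and 0.523% higher at the second rule. The share called down rests on single libraries: the 322 genes became 53, 135 and 135 without Aza1 eM2 replicate 1, 2 and 3, 162 and 202 without DMSO replicate 1 and 2, and 158 with the seed storage share as a covariate. Groups did not overlap in 1 of 9 members, SUVH7, against 20.7% of all genes. The median log2 fold change of the members was 0.05, against 0.01 over all genes. Leaving out each library in turn gave log2 fold changes between -2.37 and -2.07 and adjusted p between 0.000679 and 0.00935, and SUVH7 was called each time. With total gene counts as the scaling, the median of all genes moved to -0.25 and the log2 fold change of SUVH7 was -2.52.

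The 8 other tested members had log2 fold changes between -0.24 and 0.23 in Aza1 eM2 against DMSO, and the smallest of their adjusted p was 0.328. SUVH8, the closest relative of SUVH7, had 104, 194 and 198 counts, within the range of the DMSO libraries except for the first. The log2 fold change of SUVH8 was -0.24 (approximate 95% confidence interval -0.72 to 0.25, adjusted p = 0.666, edgeR). SUVH4 had 328, 538 and 404 counts and a log2 fold change of -0.13 (-0.49 to 0.22, adjusted p = 0.746). Both intervals lie apart from that of SUVH7. Within a library, SUVH7 had 0.172 to 0.288 times the counts of SUVH8 in Aza1 eM2, 0.620 to 0.988 times in DMSO, 0.779 to 0.940 times in the jas-3-labelled libraries and 0.500 to 1.17 times in Aza1 eM3. This ratio was lower in each Aza1 eM2 library than in any other library except those of WT, where SUVH7 had no count, and the difference in the ratio was not tested. The log2 level of SUVH7 relative to the mean of the 8 other members was -3.99 ± 0.18 in Aza1 eM2 (SD, n = 3) and -1.81 ± 0.22 in DMSO (n = 3).

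In Aza1 eM3, SUVH7 was higher again, within the range of the DMSO controls in 3 of 4 libraries. It had 212, 98, 173 and 154 counts, or 3.60 ± 0.94 CPM (n = 4), and the lowest of these libraries was above the highest of Aza1 eM2. Against Aza1 eM2 its log2 fold change was 2.09 (standard error 0.25, approximate 95% confidence interval 1.59 to 2.59, adjusted p = 0.00256, edgeR), a 4.25-fold rise. SUVH7 was the only member called. Over all genes, 0.868% were called up and 0.0626% down, and 2.77% and 0.362% passed the second rule. Groups did not overlap in 2 of 9 members, SUVH7 higher and SUVH6 lower, against 16.1% of all genes. The call is close to the threshold. It was lost without Aza1 eM2 replicate 1, 2 or 3 (adjusted p = 0.0186, 0.0171 and 0.0119) and without Aza1 eM3 replicate 1 (log2 fold change 1.94), while the adjusted p stayed under 0.05 in all 14 fits that left out 1 library. Most calls of the genome were lost with it, and the 194 genes called up became 5, 3 and 16 without Aza1 eM2 replicate 1, 2 and 3, 92 and 55 without Aza1 eM3 replicate 1 and 3, 89 without DMSO replicate 2, and 0 with only these groups in the fit. The log2 fold changes of the 8 other members lay between -0.26 and 0.15, and the smallest of their adjusted p was 0.265. The median of the members was -0.13, against -0.01 over all genes.

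Against the DMSO controls, no tested gene was called in Aza1 eM3 with edgeR (0% up and 0% down), none had an adjusted p under 0.05 and 1626 had an unadjusted p under 0.05, while DESeq2 called 8 genes up and 1 down, none of them a member. Groups did not overlap in 0 of 9 members, against 7.66% of all genes. SUVH7 had a log2 fold change of -0.14 (approximate 95% confidence interval -0.59 to 0.30, adjusted p = 0.902, edgeR). This interval leaves out the difference measured in Aza1 eM2. All 9 members had estimates below 0, between -0.17 and -0.01, with adjusted p of 0.724 or more, and 0 members had an unadjusted p under 0.05. The members' median was -0.09, against 0.00 over all genes. The Aza1 eM3 libraries were at least 20.9-fold above WT for SUVH7, again against a floor of 3 counts per library.

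**Figure D4:**
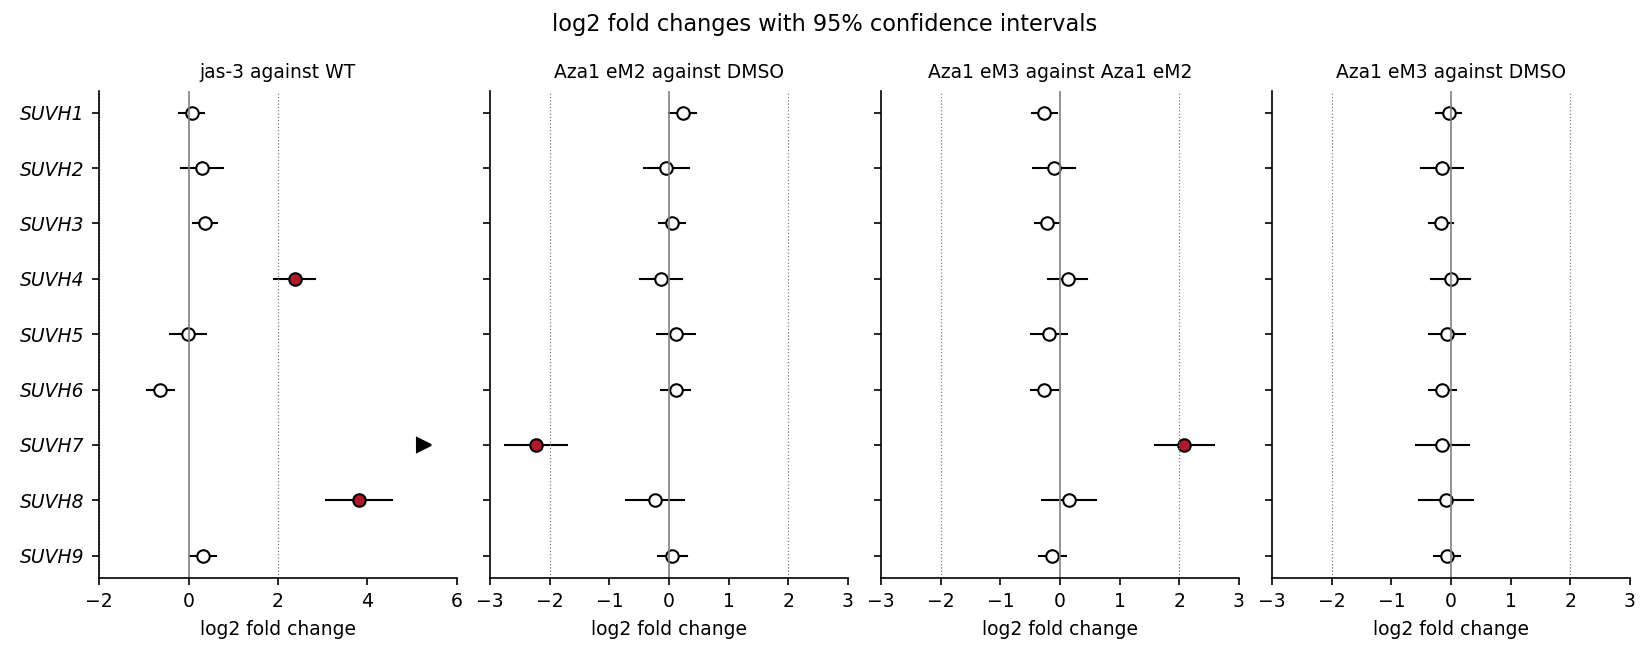
log2 fold changes (horizontal axis) of the 9 tested SUVH genes in 4 comparisons, with approximate 95% confidence intervals, which are narrower than the p-values imply. Filled points are called, open points are not, and dotted lines mark log2 fold changes of -2 and 2. The triangle marks the lower bound of SUVH7 against WT, where it had 0 counts, and SUVH7 is the only filled point in the comparisons of Aza1 eM2 with DMSO (-2.23) and of Aza1 eM3 with Aza1 eM2 (2.09), while the direction of SUVH6 in jas-3 against WT flips with total gene counts as the scaling.

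Of the 5 endosperm markers, PHE1 and FWA moved with SUVH7 in Aza1 eM2. The summed level of the 5 genes was 7.28 to 10.8 CPM there, below every DMSO library and every Aza1 eM3 library. This fall in the sum lay mostly in PHE1, at a mean of 20.7 CPM in DMSO and 0.64 CPM in Aza1 eM2, and in FWA, at 6.86 and 0.81 CPM. The embryo markers did not move together. The summed level of LEC1, ABI3, FUS3 and OLEO1 was 8342 to 13021 CPM in Aza1 eM2, above every DMSO library (3994 to 7402 CPM). Nearly all of this sum was OLEO1, at a mean of 10516 CPM in Aza1 eM2 and 5640 CPM in DMSO. None of the 4 genes passed either rule, with log2 fold changes of 0.68 for ABI3, 0.58 for FUS3, 0.90 for OLEO1 and -0.84 for LEC1. The median summed level of seed storage genes was 343721 CPM in Aza1 eM2 and 183625 CPM in DMSO, and their ranges overlapped only between the lowest library of the former and the highest of the latter. PHE1, itself a PEG, was counted 22, 48 and 8 times in Aza1 eM2 and 1993, 571 and 525 times with DMSO (log2 fold change -4.98, adjusted p = 0.00412, edgeR), and FWA, expressed from the maternal allele, had 22, 54 and 22 counts against 582, 265 and 164 counts (-3.06, adjusted p = 0.00272). The other 3 markers of the list did not pass the test, with log2 fold changes of -1.12 for AGL62, -0.34 for FIS2 and 0.39 for MEA. The part of these differences in the change of SUVH7 was not tested. SUVH3, SUVH7 and SUVH9 are on the list of PEGs that the study compiled from earlier work, and SUVH3 (log2 fold change 0.05) and SUVH9 (0.06) did not differ measurably between Aza1 eM2 and DMSO, with adjusted p of 0.842 and 0.846.

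The gene next to SUVH7 varied in the same direction. AT1G17780 starts 878 bases after SUVH7 ends and is also on the PEG list, and it is named here after its values had been seen because it passed the second rule only. Its counts were 226, 264 and 264 in Aza1 eM2, against 1151, 952 and 1100 with DMSO, and 1165, 567, 868 and 573 in the eM3 generation. The Aza1 eM2 libraries were below every library of these 2 groups, with a log2 fold change of -1.78 (standard error 0.24, adjusted p = 0.00138, edgeR) against DMSO, and Aza1 eM3 was higher than Aza1 eM2 by 1.45 (0.23, adjusted p = 0.00445). Unlike SUVH7, AT1G17780 was present in WT, at 170 and 216 counts, and was 1.46 higher on the log2 scale in the jas-3-labelled libraries (adjusted p = 0.0023). The next gene on that side, AT1G17790, also a PEG of the list, which encodes a bromodomain protein, had a log2 fold change of 0.01 (adjusted p = 0.977) in Aza1 eM2 against DMSO, and CSTF77, on the other side, one of 0.14 (adjusted p = 0.428). The difference thus covered SUVH7 and AT1G17780 and was not detected in the gene on either side of them.

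**Figure D5:**
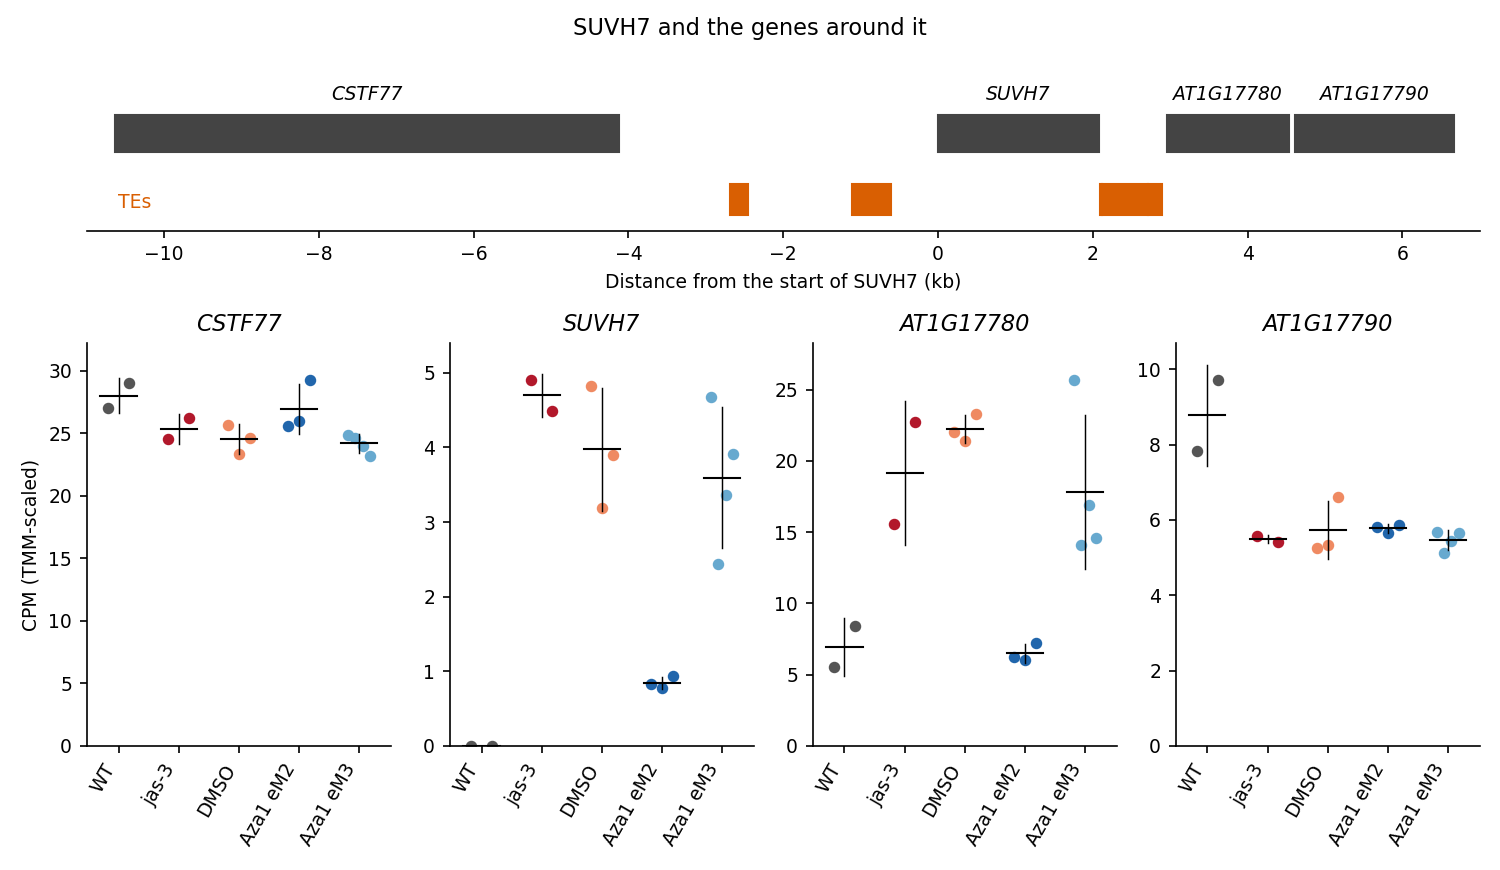
Genes (grey) and TEs (orange) around SUVH7 to scale, as distance from its start in kb, above the level of the 4 genes in CPM scaled by TMM by group; points are libraries, horizontal bars means and vertical bars ± 1 SD. SUVH7 and AT1G17780 are both low in Aza1 eM2, at 30 to 34 and 226 to 264 counts, and CSTF77 and AT1G17790 are not.

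Of the 20 genes nearest to the members on either side, 16 were tested and 2 were called in any comparison. GDU4, a member of the glutamine dumper family and 27426 bases from SUVH8, was higher in Aza1 eM2 than in WT (log2 fold change 2.05, adjusted p = 0.00102, edgeR), with 1463, 835 and 668 counts against 216 and 140. AT2G05910, 384 bases from SUVH10, was lower in DMSO than in WT (-2.98, adjusted p = 0.005), with 422, 846 and 798 counts against 3471 and 3033. SUVH10 (AT2G05900, chromosome 2, 2256970 to 2257908) itself had 0 counts in 13 libraries and 1 count in Aza1 eM2 replicate 1, all under the floor of 3 counts, so that its RNA was not detectable at this depth.

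The stretch between SUVH7 and AT1G17780 and the bases before SUVH7 hold 4 TEs within 2000 bases of the gene, of the families ATREP4, HELITRONY3, ATTIR16T3A and ATREP10B. None of them had a count in WT. ATREP10B (AT1TE19800), 630 bases after the end of SUVH7, was counted 10 and 20 times in the jas-3-labelled libraries, 11, 5 and 23 times with DMSO, 0, 0 and 2 times in Aza1 eM2, and 21, 9, 8 and 8 times in the eM3 generation. The other 3 had 0 counts in Aza1 eM2 and at most 9 counts in any library. These TEs adjoin the genes, and reads that reach from a gene into a TE cannot be told apart from reads of the TE alone in such counts.

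Genes whose level over the 14 libraries was most like that of each called member were sought by the root mean square difference of log2 CPM after centring, a description over libraries that share groups. For SUVH4 they were FBS4 (0.15), AT4G39380 (0.16) and AT3G57060 (0.18). For SUVH8 they were SMC3 (0.22), a chromosome condensation protein, AT3G44050 (0.24) and AT5G60930 (0.26). For SUVH7 they were AT5G48980 (0.30), AT3G25280 (0.31), of the NPF family of transporters, and AT5G36200 (0.32), and none of these 9 genes is on the PEG list. Counts of AT5G48980 were 4 and 5 in WT, 961 and 865 in the jas-3-labelled libraries, 1387, 958 and 846 with DMSO, 108, 130 and 136 in Aza1 eM2, and 1203, 466, 1000 and 529 in its next generation. Seen from SUVH8, SUVH4 came at rank 260 of all tested genes and SUVH7 at rank 7216, with a median difference of 1.29 over all of them. The sequence relatives SUVH7 and SUVH8 were thus less alike in pattern (1.17) than SUVH8 and SUVH4 (0.52). Seen from SUVH7, SUVH8 came at rank 771, with a median difference of 2.24. The WT levels of SUVH7 used here rest on 0 counts and on the small count added before the log2.

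Of 17 other genes of H3K9 methylation, non-CG methylation and polymerase V recruitment, all were tested and CMT3 was the only one called, up against WT. Over all genes, 7.08% were called up in the jas-3-labelled libraries, 7.44% in DMSO and 5.4% in Aza1 eM2. A count of 1 in 17 lies near these shares. WT gave 78 and 40 counts of CMT3, the jas-3-labelled libraries gave 1075 and 859, DMSO gave 1148, 667 and 632, and Aza1 eM2 gave 472, 656 and 556. Its log2 fold change against WT was 3.21 (standard error 0.26, adjusted p = 3.34e-06, edgeR) in the jas-3-labelled libraries, 3.03 in DMSO and 2.80 in Aza1 eM2. SUVH4 and CMT3, 2 of the enzymes of the CHG methylation loop, were thus both called up in each comparison with WT. The exceptions are the settings given above in which SUVH4 fell under the threshold. SUVH5 and SUVH6, which methylate H3K9 as well, were not called up in any comparison with WT. Their log2 fold changes were -0.01 and -0.63 in the jas-3-labelled libraries. At the second rule, 2 of the 17 genes were higher and 2 were lower in the jas-3-labelled libraries against WT, 3 and 2 in DMSO, and 5 and 2 in Aza1 eM2. Over all genes the shares higher and lower were 23.7% and 16.5%, 27.1% and 22.6%, and 22.4% and 15.8%, so that these counts lie near the background. Besides CMT3, the higher genes were SUVR5, of the related SUVR group (log2 fold change 1.35 in the jas-3-labelled libraries, 1.03 in DMSO and 0.69 in Aza1 eM2), SUVR2 in DMSO (0.64) and Aza1 eM2 (0.74), and DMS3 (0.49) and DRD1 (0.41) in Aza1 eM2. The 2 lower genes were in each case IBM1, the demethylase of H3K9 in genes, at -0.83 in DMSO and -0.96 in Aza1 eM2, and EDM2, on which the full IBM1 transcript depends, at -0.80 and -0.63. Both values are relative to the bulk of genes, whose median moved to 0.74 in DMSO and 0.49 in Aza1 eM2 against WT with total gene counts as the scaling. In the 4 comparisons without WT, 0 of the 17 genes passed either rule with edgeR, and unadjusted p was under 0.05 for 3 genes in Aza1 eM2 against DMSO, for 4 in Aza1 eM3 against Aza1 eM2, and for 0 in the other two.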

How the data were processed

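The authors aligned paired-end mRNA reads of siliques to TAIR10 with STAR and deposited counts of reads per gene, TE and intergenic region, without normalization. How strand and reads with several alignments were treated is not given in the sources used here. Between 73.7% and 79.0% of gene counts from 1 to 20 were even, as when both mates are counted, so the number of independent fragments is smaller than the count. A floor of 3 counts reflects counting error only. The 95% confidence intervals of fold changes come from the edgeR standard errors and include the spread between libraries. They are approximate, as they use the normal distribution, and are narrower than intervals that would match the edgeR p-values. For SUVH1 in Aza1 eM2 against DMSO, the interval was 0.00499 to 0.452 while the unadjusted p was 0.0676 (edgeR). Replicates of a group differed by 33.7 to 255 times the sampling noise (chi-square per degree of freedom).

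Gene counts of 14 libraries were tested in edgeR 4.0.16 (R 4.3.3) with filterByExpr, TMM and group as the only factor. Members and lists were chosen with earlier results of these data known. Named were all members, fixed pathway genes and nearest neighbours called in any comparison, the 3 genes most like each called member, JASON and genes of the marker lists. AT1G17780 and the pathway genes that passed the second rule alone were named after their values had been seen. FPKM used total gene counts and RefSeq exons within the deposited gene coordinates. Alternatives included DESeq2 1.42.0. Coding sequences were aligned with MAFFT 7.526. Scripts were tested on simulated data. Lower bounds compare the lowest library of the higher group with 3 counts and take each count as an independent fragment. Python 3.11.15 was used for tables and plots.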

Additional observations from a re-analysis of the deposited data

Results flagged for a closer look

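Reads fell on the TE AT1TE19800 (ATREP10B) beside SUVH7, outside the gene counts that were tested, in groups other than WT. Its lowest count in a library was 10 in the libraries labelled jas-3, 5 in DMSO and 8 in Aza1 eM3, against 0 and 0 counts in WT, and it had 0, 0 and 2 counts in Aza1 eM2. No test was made on TEs.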

How the results depend on the processing

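Depth and WT composition limit these results. SUVH7 and SUVH8 rest on at most 297 counts in any library, SUVH10 could not be measured, WT and jas-3 have 2 libraries each, and without one of them the remaining library is assumed to vary like those of other groups. Over all settings, 164 of 175 counts of members at the main threshold outside the main fit, and 155 of 168 at the second rule, were within 1.5 times the main value. FPKM in DMSO moved by more than 1 SD in 5 of 20 cases: with the gene span as length, SUVH3 was at 6.95 and SUVH4 at 2.86 FPKM and SUVH6 was lower as well, and with TMM library sizes, SUVH1 was at 8.29 and SUVH3 at 7.61 FPKM. The replicate block lowered the number of all genes called down from 322 to 216 for Aza1 eM2 against DMSO, and that of genes called up from 194 to 58 for Aza1 eM3 against Aza1 eM2. Requiring at least 10 counts in every library removed SUVH7 and SUVH8 from the test, which left 1 member called (SUVH4) and 3 passing the second rule in jas-3, DMSO and Aza1 eM2 against WT, and 0 at both rules in Aza1 eM2 against DMSO and in Aza1 eM3 against Aza1 eM2. With the seed storage share as a covariate, 3 members (SUVH4, SUVH7 and SUVH8) passed the second rule in each comparison with WT, and 0 were called in Aza1 eM3 against Aza1 eM2 (SUVH7 at 1.98). With only the groups of the comparison in the fit, 0 were called in Aza1 eM3 against Aza1 eM2 (SUVH7 at 2.09, adjusted p = 0.0155). With total gene counts without TMM, chosen after the data had been seen, 8 members passed the second rule in jas-3 and in DMSO against WT, and SUVH6 turned to 0.16 and 0.054. The cause of these shifts was not tested. Leaving out 1 library gave 3 members called in jas-3 against WT, 2 to 3 in DMSO and in Aza1 eM2 against WT, 1 in Aza1 eM2 against DMSO and 0 to 1 in Aza1 eM3 against Aza1 eM2. The second rule then gave 3 to 5 members in jas-3 and in Aza1 eM2 against WT and 4 to 5 in DMSO against WT. Same-numbered libraries of different groups did not deviate together in all pairs (mean correlation of -0.19 to 0.37 over 7 comparisons). The highest mean was for DMSO against jas-3, with 0.53 for replicate 1 and 0.20 for replicate 2. In a group of 2 libraries both deviations mirror each other, so this check cannot settle whether the numbers pair libraries. The replicate block left the calls at 3 members in jas-3 against WT and 1 in Aza1 eM2 against DMSO, and moved no count of members by over 1.5 times.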
